A study of Mus musculus with 5 samples.

Results

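The 10 genes described here were chosen by name as neural cell adhesion molecules: Chl1, L1cam, Ncam1, Nrcam, Nfasc, Cadm1, Cadm4 and Alcam, which encode immunoglobulin-type membrane proteins, with Slitrk6 and Reln. They are 10 of the 27729 genes in the deposited tables, and they were chosen with earlier results of these data known. Slitrk6, a membrane protein with leucine-rich repeats, and Reln, a secreted glycoprotein, carry no immunoglobulin domain, so the name covers them by role and not by structure. Total RNA from mouse embryonic fibroblasts (MEFs), connective tissue cells of mouse embryos, was sequenced at day 0, when the cells were still in serum, and at days 2, 5, 10 and 14 after 5C medium was added, with 1 library per time point and 5 in all. The MEFs came from mid-gestation embryos of the ICR strain without head and internal organs, were grown for additional passages in medium with serum, and were depleted of weakly attached cells by a short trypsin treatment, so all 5 libraries share this selection. 5C medium is DMEM/F12 to which N2 supplement, vitamin C, 2-mercaptoethanol and the factors bFGF and LIF are added, and it was applied on Matrigel. The labels call the medium 6C, their treatment text names day 15 where the day given for the last library is 14, and labels and methods differ in the number of cells seeded.

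In the developing nervous system these proteins hold axons, dendrites and glia in contact. L1cam, Chl1, Nrcam and Nfasc form the L1 family, whose intracellular tails bind ankyrin and so the spectrin skeleton. Ncam1 binds itself on neighbouring cells, and its polysialic acid chains loosen that contact. Cadm1 and Cadm4 are nectin-like molecules that link axons with synaptic partners or Schwann cells, and Alcam binds itself and CD6. Reln is the ligand of the receptors Vldlr and Lrp8, which pass the signal to the adaptor Dab1. Slitrk proteins bind receptor tyrosine phosphatases across the synapse.

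In these cultures 8 of the 10 genes were far higher late in 5C medium than in MEFs, Ncam1 was lower, and Alcam was higher early and lower at the end. Levels are given as normalized counts, which are the deposited expected counts divided by the effective size of each library. A gene is counted as above or below day 0 where the ratio of normalized counts, each with a pseudocount of 1, exceeded 2-fold. On day 10, 8 genes were above and 0 below, and on day 14, 8 were above and 1 was below. A library with 10 or more expected counts was found for 13346 genes, called the genes kept. Of these, 28.7% were above and 22.3% below on day 10, and 24.5% were above and 19.9% below on day 14. The median log2 change of the 10 genes was 5.67 on day 10 and 5.60 on day 14, beside 0.14 and 0.07 for all genes kept. Since the genes were chosen with earlier results known, this contrast is a description and not a test. All 8 higher genes exceeded 8-fold on both days, which 7.27% of the genes kept did on day 10 and 6.32% on day 14. With 1 library per time point no difference has a replicate check and no test was possible. The 95% intervals given are exact (Clopper-Pearson) intervals of the ratio without a pseudocount, and they cover counting error only. The reads carried no molecular identifiers, so that copied molecules could make the counting error larger than these intervals. Fewer cells of a type and less RNA per cell cannot be told apart in these bulk samples.

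**Figure D1:**
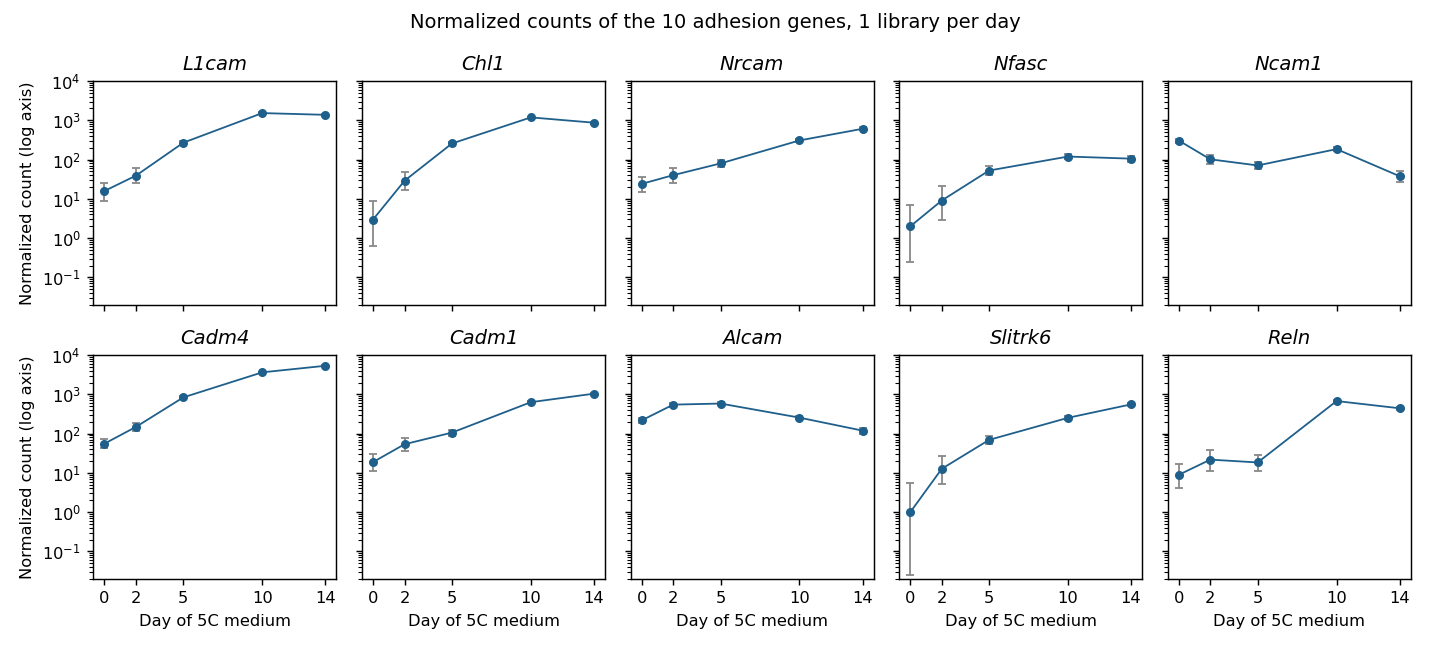
Normalized counts (vertical, log axis) of each gene by day of 5C medium (horizontal), 1 library per point, with exact Poisson 95% intervals as bars. 4 genes are highest on day 10, 4 on day 14, Alcam on day 5 and Ncam1 on day 0.

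The size of the day 0 level bears on these numbers. Chl1, Nfasc, Slitrk6 and Reln had fewer than 10 expected counts on day 0 and passed the filter through the later libraries, so that a large ratio was built into their passing. The other 6 genes had 10 or more in every library, and 4 of these were above day 0 on day 10 and 4 on day 14. Of all 9634 genes with 10 or more in every library, 18.7% were above on day 10 and 15.6% on day 14. Library totals lay between 2253748 expected counts, for day 2, and 3890334, for day 0, and 3 counts correspond to between 0.771 and 1.33 per 1000000 counts. In the day 2 library the gene Gm42418 took 4.79% of the counts, against 0.109% or less in the others. Leaving it and Lars2 out of the library sizes moved the median of all genes by less than 0.001 on the log2 scale.

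The regions before the transcription starts of several of these genes are shown because L1cam and Cadm4 had the closest profiles among the 10 genes, while Slitrk6 and Reln were at a few counts on day 0. Each is the 250 bases before a RefSeq start in GRCm38.p6, which has the coordinates of the deposited mm10 build, 5′ to 3′ on the strand of the gene. Capitals mark the GC box GGGCGG and the Sox-type motif ACAATG, each searched on both strands. The L1cam window (chrX:73880835-73881084, minus strand) lies inside the longer L1cam gene model of GENCODE M21, and the Cadm4 (chr7:24481773-24482022, plus strand), Slitrk6 (chr14:110755150-110755399, minus strand) and Reln (chr5:22344706-22344955, minus strand) windows lie before their genes.
Cadm4: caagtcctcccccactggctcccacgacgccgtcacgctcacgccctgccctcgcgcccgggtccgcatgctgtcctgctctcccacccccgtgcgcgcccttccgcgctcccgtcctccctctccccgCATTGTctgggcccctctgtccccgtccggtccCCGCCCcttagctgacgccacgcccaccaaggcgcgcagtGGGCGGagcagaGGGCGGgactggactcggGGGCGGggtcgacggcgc
L1cam: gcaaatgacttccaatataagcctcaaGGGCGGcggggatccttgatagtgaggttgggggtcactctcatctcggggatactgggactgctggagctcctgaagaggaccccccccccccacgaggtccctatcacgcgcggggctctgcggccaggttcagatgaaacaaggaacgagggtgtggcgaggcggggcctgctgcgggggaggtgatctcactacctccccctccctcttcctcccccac
Reln: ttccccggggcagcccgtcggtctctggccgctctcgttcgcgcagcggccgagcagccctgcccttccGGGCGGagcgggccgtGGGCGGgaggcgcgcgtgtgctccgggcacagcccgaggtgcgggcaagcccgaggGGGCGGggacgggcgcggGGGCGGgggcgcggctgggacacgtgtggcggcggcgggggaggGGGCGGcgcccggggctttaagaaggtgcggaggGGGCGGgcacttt
Slitrk6: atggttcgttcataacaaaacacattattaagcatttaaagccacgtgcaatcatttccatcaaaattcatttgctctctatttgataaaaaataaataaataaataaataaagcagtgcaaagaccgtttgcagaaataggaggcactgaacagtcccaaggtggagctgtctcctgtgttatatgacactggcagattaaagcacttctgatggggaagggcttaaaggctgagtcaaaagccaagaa

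Base composition differed widely among them. The share of G and C was 75.2% for Cadm4, 63.2% for L1cam, 80% for Reln and 37.2% for Slitrk6, beside a median of 52.4% over all 32851 windows of 27025 genes. The Reln window held 6 GC boxes, that of Cadm4 4, that of L1cam 1 and that of Slitrk6 0. RefSeq windows were at hand for 8 of the 10 genes, not for Ncam1 and Cadm1, and 7 of their 10 windows held a GC box, as did 32.7% of all windows. The 2 L1cam windows share 206 bases, and by gene 6 of the 8 had a GC box in a window. A Sox-type motif, ACAATG or ACAAAG, was in 2 of the 10 windows, those of Cadm4 and Chl1, and in 25.2% of all windows. A match describes the letters of the window and no binding was measured.

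Within the L1 family all 4 genes were higher late, but they differed in when they were highest. L1cam (ENSMUSG00000031391, chrX:73853778-73896105, minus strand of GRCm38 in GENCODE M21), the founding member that guides axon bundles, had normalized counts of 15.8, 39.1, 269, 1527 and 1377 in time order. Its level was 2.47-fold that of day 0 on day 2 (interval 1.26 to 5.12), 17.0-fold on day 5 (10.3 to 30.2), 96.4-fold on day 10 (59.2 to 169) and 87.0-fold on day 14 (53.4 to 153). Each step up to day 10 thus exceeded its counting error. L1cam shares bases with Arhgap4 on the same strand, which had at most 16 counts in any library, and with Avpr2 on the other strand, which had at most 1.73. Reads in shared bases cannot be told apart, since the use of strand in counting is not given in the sources used here.

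Chl1 (ENSMUSG00000030077, chr6:103510586-103750211, plus strand), the close homolog of L1 that promotes neurite growth, started from 3 expected counts. Its normalized counts of 2.97, 29.0, 256, 1185 and 869 in time order gave 86.4-fold on day 5 (29.3 to 421), and the width of this interval comes from the day 0 count. From day 2 to day 5, where both levels are better counted, the ratio was 8.85 (5.36 to 15.7), and from day 5 to day 10 it was 4.62 (4.08 to 5.25).

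Nrcam (ENSMUSG00000020598, chr12:44328885-44601964, plus strand), which clusters at nodes of Ranvier and binds contactins and ankyrin G, was the slowest of the family. Normalized counts in time order were 24.0, 40.0, 79.6, 307 and 607. On day 2 the ratio of 1.67 to day 0 was within counting error (0.896 to 3.12), and the level was then 3.32-fold that of day 0 by day 5 (2.12 to 5.50), 12.8-fold by day 10 (8.55 to 20.4) and 25.3-fold by day 14 (17.1 to 40.2). Nrcam was the only L1 family gene that was highest on day 14.

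Nfasc (ENSMUSG00000026442, chr1:132564690-132741797, minus strand) encodes neurofascin, whose glial and neuronal forms meet around the node. The 5 libraries in time order gave 1.98, 9.05, 52.5, 119 and 105 normalized counts, with 2 expected counts on day 0. The ratio of 4.57 on day 2 could not be told from 1 at this depth (0.748 to 48.0), and those of day 10 (60.3, 16.4 to 502) and day 14 (53.3, 14.4 to 445) had lower bounds over 10. From day 2 to day 5 the level was 5.80-fold higher (2.35 to 18.5). It was the scarcest of the 10 genes per length on days 10 and 14, with TPM values of 11.3 and 7.52.

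Ncam1 (ENSMUSG00000039542, chr9:49502136-49798925, minus strand) went against the L1 family. It had normalized counts of 305, 101, 70.8, 184 and 37.5 in time order. The level was 3.01-fold lower than day 0 on day 2 (2.26 to 4.07), 4.31-fold lower on day 5 (3.36 to 5.56), 1.65-fold lower on day 10 (1.40 to 1.96) and 8.12-fold lower on day 14 (5.87 to 11.5). The course was not steady: from day 5 to day 10 it was 2.61-fold higher (2.02 to 3.38), and from day 10 to day 14 it was 4.91-fold lower (3.53 to 6.97). On the TPM scale the day 10 value was above that of day 0 (50.9 against 31.1). There the log2 difference was 0.69, or -0.26 relative to the shift of 0.95 that this scale gives the median of all genes. On days 2, 5 and 14 Ncam1 was below day 0 on the TPM scale too. The overlapping antisense gene Gm11149 had at most 2.12 counts.

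Cadm4 (ENSMUSG00000054793, chr7:24482023-24504539, plus strand), a nectin-like molecule that Schwann cells use to bind axons, had the highest counts of the 10 genes from day 5 on. In time order, 55.4, 148, 837, 3631 and 5333 normalized counts were measured. They were 2.68-fold those of day 0 on day 2 (1.88 to 3.83), 15.1-fold on day 5 (11.5 to 20.1), 65.5-fold on day 10 (50.4 to 86.9) and 96.2-fold on day 14 (74.0 to 128). Relative to the fold itself, these are the narrowest intervals among the 8 higher genes. Cadm4 has 1 transcript of 2161 bases in the deposited tables, and by length it was at percentile 41.0 of all genes kept, below the other 9 genes.

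Cadm1 (ENSMUSG00000032076, chr9:47530173-47857637, plus strand), also called SynCAM1, an adhesion molecule of synapses and many epithelia, had normalized counts of 18.8, 53.6, 106, 631 and 1039 in time order. It was 2.85-fold higher than day 0 on day 2 (1.57 to 5.43), 5.63-fold on day 5 (3.45 to 9.68), 33.5-fold on day 10 (21.3 to 56.0) and 55.3-fold on day 14 (35.2 to 92.1). Both Cadm genes were thus highest in the last library. Their ratios from day 5 to day 10 were 5.96 for Cadm1 (4.92 to 7.26) and 4.34 for Cadm4 (4.05 to 4.66).

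Alcam (ENSMUSG00000022636, chr16:52248996-52454074, minus strand), which is made by fibroblasts, leukocytes and growing axons, had normalized counts of 217, 546, 582, 255 and 119 in time order. It was 2.52-fold higher than day 0 on day 2 (2.11 to 3.01) and 2.69-fold on day 5 (2.30 to 3.14). On day 10 the ratio of 1.18 was within counting error (0.991 to 1.40), and on day 14 the level was 1.82-fold lower (1.46 to 2.28), short of the 2-fold threshold with the pseudocount. From day 5 to day 10 it was 2.28-fold lower (2.00 to 2.60) and from day 10 to day 14 2.14-fold lower (1.75 to 2.64). Alcam was the only one of the 10 genes that was lower on both of these steps. Its day 2 and day 10 values depended on the scale. In TPM the log2 change on day 2 was 0.29 (27.9 against 22.6 TPM), short of the 2-fold threshold. On day 10 the log2 change in TPM was 1.37 (60.2 against 22.6 TPM), past the threshold, which made 9 genes above on that day. With log2 changes centred among genes of like length it was -0.56, or -0.42 relative to the shift of -0.14 that the centring gives the median of all genes.

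Slitrk6 (ENSMUSG00000045871, chr14:110748580-110755149, minus strand), known for its part in the innervation of the inner ear, had 1 expected count on day 0. The normalized counts were 0.990, 12.7, 69.1, 252 and 555 in time order, and each library after day 0 was higher than the one before it. The day 14 ratio to day 0 was 561 with an interval of 100.3 to 22189, so only its lower bound is informative. Steps between the later libraries are better fixed: 5.46-fold from day 2 to day 5 (2.53 to 14.0), 3.65-fold from day 5 to day 10 (2.85 to 4.72) and 2.20-fold from day 10 to day 14 (1.93 to 2.52).

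Reln (ENSMUSG00000042453, chr5:21884454-22344702, minus strand) had a course of its own, with normalized counts of 8.91, 21.7, 18.4, 674 and 441 in time order. The ratios to day 0 on day 2 (2.44, 0.943 to 6.55) and day 5 (2.06, 0.906 to 5.12) were within counting error. From day 5 to day 10 it was 36.7-fold higher (23.9 to 59.5), while the same step was between 2.27-fold and 5.96-fold for the other 7 higher genes. On the TPM scale the log2 difference of day 2 was -0.04 against 1.20 on the main scale, or 0.13 relative to the shift of -0.17. The antisense genes Gm10475 and Gm16110 that overlap it had 0 counts in all 5 libraries.

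**Figure D2:**
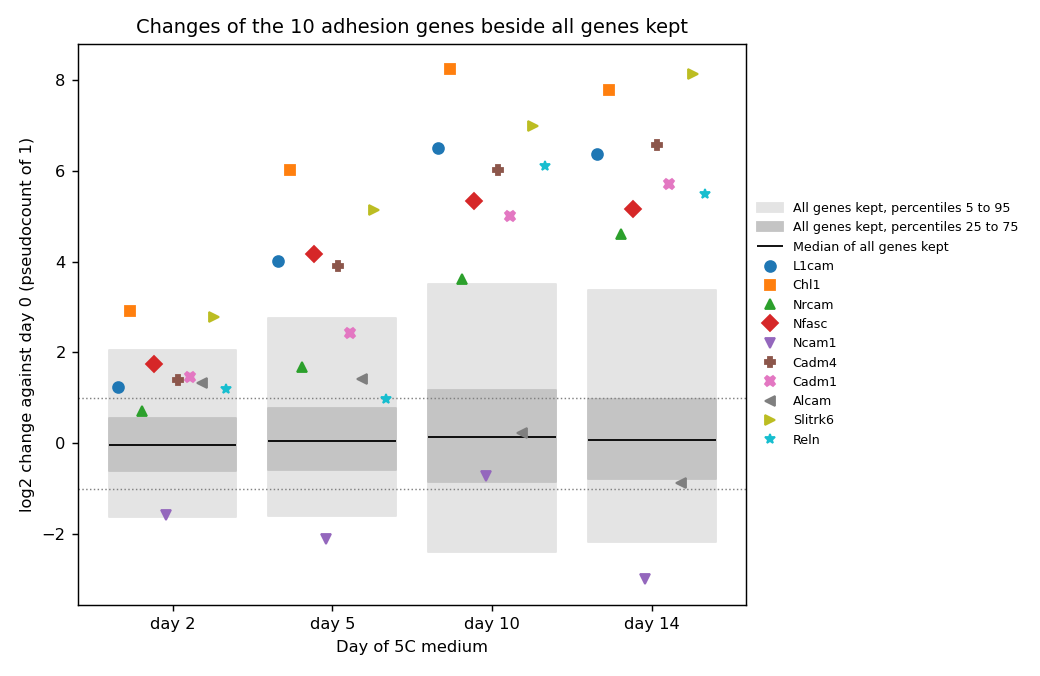
Log2 change against day 0 (vertical, pseudocount of 1) of the 10 genes in each later library (horizontal); grey boxes hold percentiles 5 to 95 and 25 to 75 of the 13346 genes kept, the line is their median and dotted lines mark 2-fold. From day 10 on 8 genes lie above the 95th percentile, Alcam lies between -0.86 and 0.23, and Ncam1 falls to -2.99 on day 14.

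Early in 5C medium the shifts were smaller. On day 2, 8 genes were above day 0 (15.2% of all genes kept) and 1 was below (13.1%), but the interval excluded 1 upward for 6 and downward for 1, Ncam1. In TPM, also with a pseudocount of 1, only 3 genes were above on day 2. That pseudocount exceeds the day 0 TPM of Chl1, Slitrk6, Nfasc and Reln. Their TPM went from 0.13 to 1.09, from 0.08 to 0.87, from 0.23 to 0.59 and from 0.58 to 0.54. That of Alcam went from 22.6 to 27.9. Reln and Alcam were thus short of 2-fold in TPM without a pseudocount too. Of the 6 genes with 10 or more counts in every library 4 were above on the main scale, beside 9.62% of all such genes. Nrcam missed the 2-fold threshold, and Nfasc and Reln passed it with intervals that held 1. On day 5, 8 were above (20.2%) and 1 below (13.6%), with a median log2 change of 3.16 against 0.05 for all genes kept. Reln, at a log2 change of 0.97, did not pass, and Nrcam did. By steps between neighbouring libraries, 5 genes were over 2-fold higher and 0 lower from day 2 to day 5, where 19.0% and 12.5% of the genes kept were. From day 5 to day 10, 9 genes were over 2-fold higher, Ncam1 among them, and Alcam was lower (12.8% and 9.5%). From day 2 to day 5 the direction for Ncam1, Reln and Alcam depended on the scale, since their main log2 differences of -0.51, -0.23 and 0.09 were 0.68, 1.89 and 1.25 in TPM.

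The step from day 10 to day 14 divided the higher genes. Slitrk6 was 2.20-fold, Nrcam 1.98-fold (1.76 to 2.24), Cadm1 1.65-fold (1.51 to 1.80) and Cadm4 1.47-fold higher (1.41 to 1.53). Reln was 1.53-fold lower (1.37 to 1.71), Chl1 1.37-fold lower (1.26 to 1.48) and L1cam 1.11-fold lower (1.04 to 1.18), and Nfasc could not be told from no difference (1.13-fold lower, 0.888 to 1.44). In all, 4 of the 10 genes were higher and 6 lower, beside 51.6% and 48.1% of all genes kept. Only 1 was over 2-fold higher (4.73%) and 2 were over 2-fold lower (8.33%), namely Slitrk6, Ncam1 and Alcam. The higher direction of Slitrk6, Nrcam, Cadm1 and Cadm4 and the lower direction of Reln, Ncam1 and Alcam held under each scaling tried. With centring among genes of like length the log2 differences of Chl1, L1cam and Nfasc became 0.04, 0.07 and 0.31, against -0.45, -0.15 and -0.18 on the main scale.

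**Figure D3:**
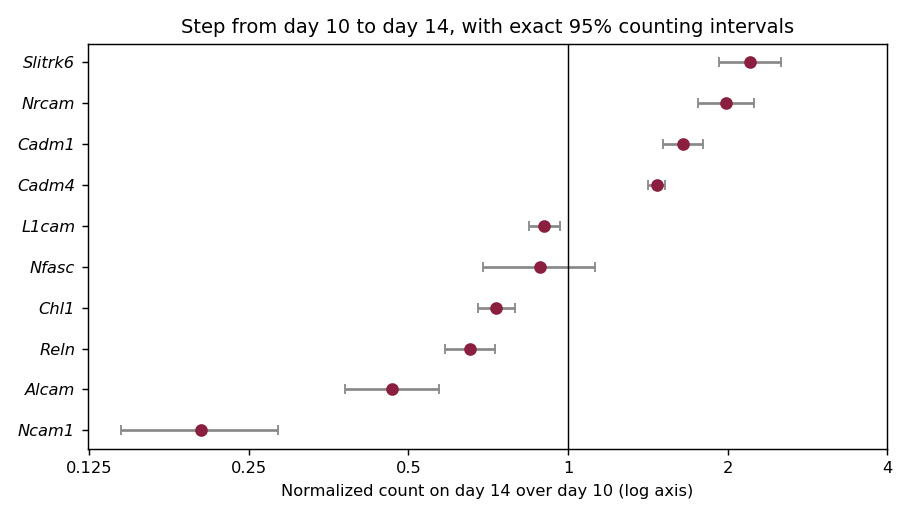
Ratio of the normalized count on day 14 to that on day 10 (horizontal, log axis) for each gene (vertical), with exact 95% counting intervals as bars. 4 genes lie above 1, 5 lie below 1 with their whole interval, and that of Nfasc crosses 1.

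Levels of different genes can be compared only per length, on the TPM scale, which sums to 1e+06 in each library. In time order the summed TPM of the 10 genes was 68.1, 71.7, 417, 2292 and 2383. Ncam1 and Alcam made up 78.9% of it on day 0 and 0.885% on day 14, while the share of Cadm4 went from 13.3% through 53.6% on day 5 to 67.0%. The L1 family made up 3.79% on day 0, 23.4% on day 10 and 16.7% on day 14. Between day 0 and day 14 the set of adhesion transcripts was therefore led by other genes.

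**Figure D4:**
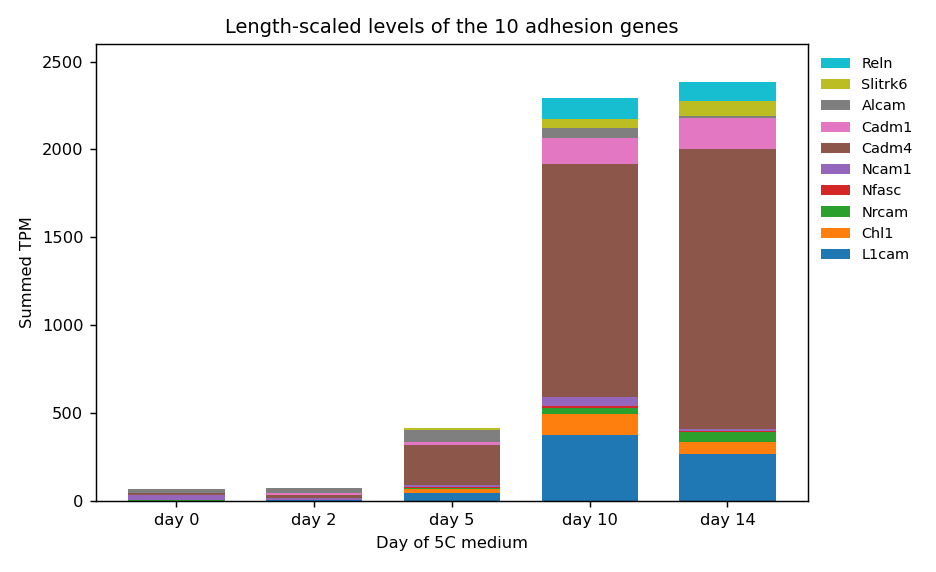
Summed TPM (vertical, from 0) of the 10 genes by library (horizontal), stacked by gene. Cadm4 makes up 1331 of 2292 TPM on day 10 and 1597 of 2383 on day 14.

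On day 0 the order by TPM was Ncam1 (31.1), Alcam (22.6), Cadm4 (9.05), Cadm1 (2.04), Nrcam (1.14), L1cam (1.08), Reln (0.58), Nfasc (0.23), Chl1 (0.13) and Slitrk6 (0.08). The last 4 rest on between 1 and 9 expected counts each, so that their order is not fixed. On day 14 it was Cadm4 (1597), L1cam (265), Cadm1 (173), Reln (109), Slitrk6 (84.5), Chl1 (72.3), Nrcam (53.1), Alcam (12.7), Ncam1 (8.39) and Nfasc (7.52). L1cam and Cadm1 thus stood behind Cadm4 on day 10 (372 and 144) and on day 14, and neighbours such as Reln and Chl1 on day 10 (122 and 121) differed by less than the precision of single libraries can show. On day 14 Reln had fewer expected counts (493) than Slitrk6 (621) and Chl1 (972). It stood above them in TPM through its deposited length of 2609 bases, which is shorter than theirs.

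RSEM weights the length of a gene by its transcripts, so the deposited length moves with the mix of transcripts the reads were assigned to. It does not show which transcripts these were. Of the 10 genes, 3 have 1 transcript in the tables (Chl1, Slitrk6 and Cadm4) and 7 have more. For Alcam it was 3377, 5717, 4937, 3354 and 6036 bases in time order. That of Cadm1 was shortest on day 2 (2128) and longest on day 14 (3874), and that of L1cam went from 5126 on day 0 to 3247 on day 10. Nrcam stayed between 7362 and 7416. Reln, with 12 and 21 counts, was at 11699 on day 2 and 2262 on day 5, and it was at 4382 on day 10 and 2609 on day 14, when its counts were high. In GENCODE M21 its coding transcripts have 10885 and 11699 bases. Its others, of 565 to 4828 bases, are retained-intron or processed transcripts, so its TPM is not a level of coding RNA alone. The longest L1cam transcripts there, all coding, have 4116, 5113 and 5126 bases, above its deposited 3247 on day 10 and 3358 on day 14. Its others, of 466 to 1351 bases, are retained-intron, processed or short coding transcripts. The TPM of L1cam is thus not a level of its long coding transcripts alone. Among the 7093 genes with several transcripts and 10 or more counts in every library, 21.7% had a longest length 1.5 or more times the shortest, as did 3 of the 5 such genes here (L1cam, Cadm1 and Alcam). The error of these estimates is not given in the deposited tables.

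**Figure D5:**
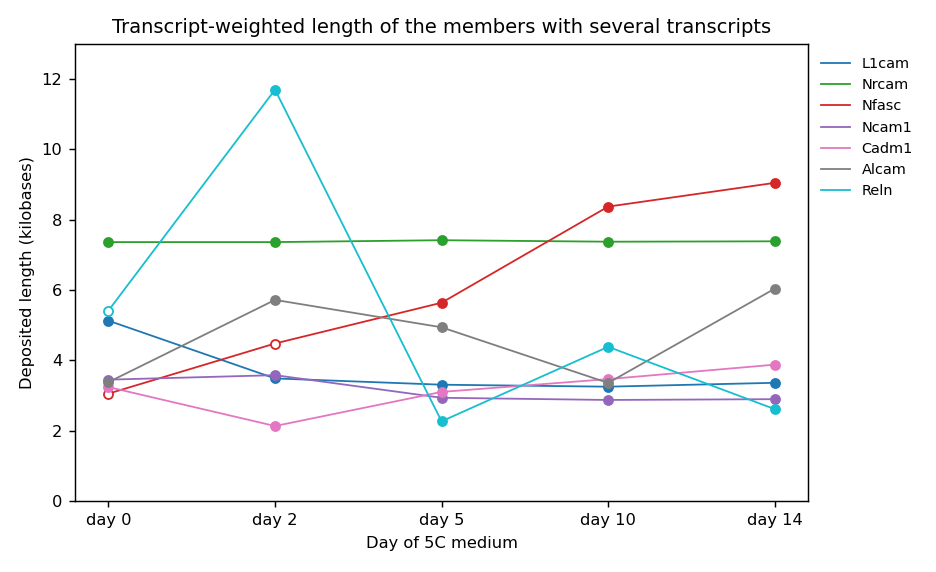
Deposited length in kilobases (vertical, from 0) by library (horizontal) for the 7 genes with several transcripts; open points rest on fewer than 10 expected counts. Nfasc goes from 3049 to 9048 bases, Reln moves between 11699 and 2262, and Nrcam stays level.

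Length moved with the changes of all genes. The genes kept were divided by length into 10 bins of like size. In the bin with the shortest transcripts the median log2 change on day 10 was -1.47, and in the bin with the longest it was 1.04, while on day 14 these were -1.04 and 0.56. Chl1, Nrcam and Nfasc are in the bin of the longest and Cadm4 is in bin 5 from the shortest. Centring within these bins left 8 genes above day 0 on both days. The part of length in the results was not tested further.

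Genes with the profile most like that of a given adhesion gene were found by the root mean square difference of the 4 log2 changes, over 8041 genes with 100 or more counts in 1 or more libraries. Cadm4 was nearest to L1cam (0.28), followed by Erbb3 (0.36), the neuregulin receptor of Schwann cells. L1cam was in turn nearest to Cadm4, followed by Hsd11b1 (0.38). Nrcam had the closest match of all in Tubb4a (0.09), a tubulin of neurons and oligodendrocytes, and then Sema3b (0.30). Alcam was nearest to Cdc25b (0.20) and Parvb (0.21), Nfasc to Igfbp5 (0.22) and Cd36 (0.24), and Cadm1 to Atp8a1 (0.23) and Cyp2j9 (0.28). Slitrk6 was nearest to Rarres2 (0.29) and Ces1d (0.43). Ncam1, with Ptprk (0.51) and Phldb2 (0.54), and Reln, with Vash1 (0.58) and Cnmd (0.64), had no closer match. These values rest on 4 points in the same 5 libraries and share the day 0 library. Vash1, Cnmd and Ces1d had 0 counts on day 0 and Slitrk6 had 1, so their log2 changes lean on the pseudocount.

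Genes of the same pathways had smaller median changes than the 10 genes. The 10 genes and these lists were chosen with earlier results known, so the comparison only describes the data. Their counts stand beside the shares of all genes kept, 28.7% above and 22.3% below day 0 on day 10 and 24.5% and 19.9% on day 14. Of 18 partners of the L1 family (ankyrins, spectrins, contactins, neuropilins and others), 11 were above and 0 below day 0 on day 10, and 8 were above and 2 below on day 14, with medians of 1.97 and 0.68, or 1.99 and 0.88 over the 14 genes kept. Ank3, which encodes the ankyrin G that anchors L1 proteins, went from 56 to 712 expected counts between day 0 and day 14, 11.5-fold higher (8.74 to 15.4). Gldn (gliomedin), a Schwann cell ligand of Nfasc and Nrcam at the node, went from 15 to 834, 50.2-fold higher (30.3 to 90.1). Of 8 partners of Ncam1, 6 were above and 0 below on day 10 and 5 and 0 on day 14, with medians of 2.35 and 1.48. Gap43, a growth cone protein, was 21.4-fold higher on day 14 (17.7 to 26.0), and Gfra1, a receptor for GDNF that can bind Ncam1, was 14.2-fold higher (9.97 to 21.6), while Ncam1 itself was lower.

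The reelin pathway had counts near the shares of all genes kept. Of 12 genes, 4 were above and 1 below on day 10, and 3 were above and 1 below on day 14, with medians of 0.57 and 0.56. The receptors were within 2-fold of day 0 on day 14, Vldlr at a log2 change of 0.66 and Lrp8 at 0.52. Both had passed the 2-fold threshold earlier. Vldlr was highest on day 10, at 2.85-fold its day 0 level, and Lrp8 on day 5, at 3.19-fold. These receptors were named for their role and not by the size of their change. Dab1, the adaptor, had 1, 1, 9, 73 and 15 expected counts, so that it was highest on day 10, as Reln and Vldlr were. Itga3, an integrin subunit that binds reelin, was 5.78-fold lower on day 14 (4.12 to 8.28).

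Of 15 relatives and partners of Slitrk6 (other Slitrk genes, Flrt and Lrrtm genes and the receptor phosphatases), 10 were above and 0 below on day 10, and 7 were above and 2 below on day 14, with medians of 1.22 and 0.72, or 1.22 and 1.33 over the 11 genes kept. Lrrtm3, a synaptic adhesion protein, had 0 counts on day 0 and 148 on day 14, at least 44.6-fold higher against a floor of 3 counts. Slitrk2 had 3 counts on day 0, 66 on day 10 and 20 on day 14. In the nectin family with the relatives of Alcam, 3 of 15 were above and 4 below on day 10, and 3 were above and 6 below on day 14, with medians of 0.00 and -0.07, or -0.55 and -1.03 over the 11 genes kept. Cadm2 was 20.5-fold higher on day 14 (9.17 to 56.8), and Mcam, an Alcam relative of pericytes and endothelium, 8.51-fold (7.41 to 9.81). Cadm3 was 7.04-fold higher (4.35 to 12.0), so that both other Cadm genes were above day 0 on day 14, as Cadm4 and Cadm1 were.

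Among 14 IgLON and other immunoglobulin adhesion genes, 9 were above and 1 below on day 10, and 8 were above and 2 below on day 14, with medians of 2.60 and 1.61, or 2.91 and 2.17 over the 12 genes kept. Ntm (neurotrimin) was 42.2-fold higher on day 14 (11.4 to 356). Mag, a myelin protein, had 0 counts on day 0, 178 on day 10 and 24 on day 14, and was at least 42.8-fold higher on day 10 against the floor. Of 6 neurexins and neuroligins, 5 were above and 0 below on day 10, and 4 and 0 on day 14, with medians of 1.90 and 1.83, or 2.65 and 2.53 over the 4 genes kept. Nlgn2, of inhibitory synapses, was 4.39-fold higher on day 14 (3.75 to 5.16) and was the only one of the 6 with 50 or more counts in a library. Some genes of these lists had 0 counts on day 0, so their changes rest on the pseudocount. With those genes set to their lower bound against 3 counts, the medians of day 10 and day 14 were 1.47 and 0.27 for the L1 family partners, 1.02 and 0.72 for the Slitrk6 list, 2.32 and 1.19 for the IgLON list and 1.90 and 1.63 for the neurexins and neuroligins, and those of the other 3 lists stayed as given.

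Markers of other cell types moved with these genes. Of 12 Schwann cell markers, 11 were above and 0 below day 0 on day 10, and 10 were above and 0 below on day 14, with summed TPM values of 160, 108, 485, 3153 and 2593 in time order. Ngfr, the neurotrophin receptor of immature Schwann cells, went from 35.1 to 4518 expected counts, and Pmp22, a myelin protein, was 2.60-fold higher on day 10 and 1.16-fold on day 14. All 7 astrocyte markers were above day 0 on day 10 and 6 on day 14, with summed TPM between 10.7 and 165. Gfap had 0, 7, 52, 308 and 150 counts, and Aldh1l1 was 42.0-fold higher on day 14 (16.1 to 156). Their part in the results on Cadm4, L1cam, Chl1 and the other genes was not tested.

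Neuron markers were mixed. Of 13, 6 were above and 2 below day 0 on day 10, and 5 were above and 3 below on day 14, and their summed TPM went from 134 to 1233, of which Gap43 made up 1101. Stmn2 was 2.75-fold lower on day 14 (2.32 to 3.29). Among the others, named after their values were seen, Tubb3 went from 22.4 to 180 counts, 7.26-fold higher on day 14 (4.73 to 12.1). Map2 went from 198 to 51 counts, 4.30-fold lower on day 14 (3.15 to 5.97). Nefm had 27.3 counts on day 0, 127 on day 5 and 24 on day 14. Syp had 0 counts on day 0 and 60.2 on day 10, Nefl was highest on day 5 with 83 counts and Snap25 with 22. Rbfox3 had 0 counts in all 5 libraries, Dcx and Elavl3 had at most 1, and Syt1 and Elavl4 at most 2. Their part in the results was not tested.

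Fibroblast markers were present in every library, with summed TPM of 1922 on day 0, 1438 on day 2 and 11404 on day 14, and with 5 of 10 above and 3 below day 0 on day 14. Col1a1 was 1.63-fold (1.59 to 1.66) and Col3a1 14.6-fold higher on day 14 (13.8 to 15.4). Macrophage markers had a summed TPM of 54.0 on day 0, and 9 of 10 were above day 0 on day 14. Their sum was highest on day 5 (1644), the day on which Alcam was highest, but Lyz2 alone made up 1252 of it. By normalized count Cd68, Lyz2, Fcgr1 and C1qb were highest on day 5 and Csf1r and C1qa on day 2. Adgre1, Cd14, Mrc1 and Cd5l were highest on day 10. Lyz2 was 9.03-fold higher on day 14 (7.41 to 11.1), and Cd5l had 0 counts on day 0 and 373 on day 14. Endothelial markers went from 23.1 to 2.64 in summed TPM, with 0 of 7 above and 3 below on day 14. Only 3 of the 7 were among the genes kept. Kdr was 65.9-fold (25.4 to 244) and Emcn 9.69-fold lower on day 14 (3.46 to 37.5). The part of these cells in the levels of Alcam and Ncam1 was not tested.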

How the data were processed

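RNA was extracted with Trizol, and libraries were made from total RNA with the Illumina TruSeq kit, per the labels. The submitters' processing notes name Bowtie, RSEM and the mm10 build; their versions, the gene annotation and the use of strand are not given in the sources used here. The files the authors deposited hold expected counts, the unscaled read estimates of RSEM, for every gene and library, with the transcript-weighted length, TPM values (divided by length and scaled to 1e+06) and FPKM values. The deposited FPKM values were not used.

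GENCODE M21 (GRCm38) named 27247 of 27729 genes. The deposited Chl1 length of 7751 bases differs from the 7562 of that annotation, so the authors used another one. Expected counts were rounded to whole numbers for TMM library sizes (edgeR 4.0.16, R 4.3.3) and for intervals. Counts divided by these sizes were rescaled by their geometric mean to give normalized counts. The background was the 13346 genes that reached 10 expected counts in any library. Calls used a pseudocount of 1 and a 2-fold threshold, and folds in the text none. Log2 changes used the same pseudocount, which on the TPM scale was added to the TPM values.

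The 10 genes and all gene lists were chosen with earlier results of these data known. Beside the 10 genes, the text names from each partner list the 2 genes with the largest log2 change on day 14 among those with 50 or more counts in a library, from each marker list the 2 with the highest count, and the 2 nearest profiles of each gene among genes with 100 or more counts. The nearest profiles of Chl1 are not reported here. Vldlr, Lrp8 and Cadm3 are named outside this rule, after their values were seen. So are neuron markers other than Gap43 and Stmn2 and macrophage markers other than Lyz2 and Cd5l. Alternatives were DESeq2 1.42.0 size factors, total counts, TPM values, library sizes without Gm42418 and Lars2, centring within 10 bins of gene length, pseudocounts of 0.5 and 5, a 4-fold threshold and other filters. The computations were tested on simulated data. Scripts ran in Python 3.11.15 (scipy 1.17.1, numpy 2.4.6, matplotlib 3.10.9, pandas 2.3.3).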

Additional observations from a re-analysis of the deposited data

How the results depend on the processing

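With 1 library per time point no library could be left out and no spread between replicates is known. No paired analysis was possible because each time point has 1 library. Over the alternatives, the median log2 change lay between 4.31 and 6.10 on day 10 and between 5.16 and 5.94 on day 14. Only 3 genes, not 8, were over 2-fold above day 0 on day 2 in TPM with a pseudocount of 1. That pseudocount exceeds the day 0 TPM of Chl1, Slitrk6, Nfasc and Reln. Reln (0.58 to 0.54 TPM) and Alcam (22.6 to 27.9 TPM) were short of 2-fold without it too. Centring among genes of like length gave 1 gene below on day 10 and 2 on day 14. A 4-fold threshold left 2 above and 0 below on day 2. The 6 genes with 10 or more counts in every library gave 4, 5, 4 and 4 above on the later days in time order, with a day 10 median of 4.31. Of the 40 single values, 3 changed direction: Reln on day 2 turned to -0.037 and Ncam1 on day 10 to 0.69 in TPM, and Alcam on day 10 to -0.56 with length centring. In TPM with a pseudocount of 1, beside Reln, 19 lay outside the counting interval of the main value, among them Ncam1 on day 10 and Nfasc on day 14 (5.16 to 2.79). The TPM of Nfasc was 0.23 on day 0 and 7.52 on day 14, so the pseudocount shrinks that log2 change. The same holds for Chl1 (0.13 on day 0) and Slitrk6 (0.08). Other causes were not tested. TPM values moved the median of all genes by -0.17, 0.56, 0.95 and 0.72 over the later days in time order, and total counts by -0.08, 0.37, 0.46 and 0.35. On day 0, 3 counts limit what can be shown for Chl1, Nfasc and Slitrk6.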
